A study of Homo sapiens with 6 samples.

Results

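The 10 genes described here encode ATP-binding cassette (ABC) transporters that move drugs, glutathione conjugates or lipids out of the cell or between its compartments. They were ABCB1, ABCB6, ABCC1, ABCC2, ABCC3, ABCC4, ABCC5, ABCC10, ABCG2 and ABCA1, chosen by name out of the 58884 genes of the expression table. No cut-off on their values was used, but earlier results of these data were known when they were chosen. All 10 were found in the table, and 9 had enough reads to be tested. Their transcripts were read by RNA sequencing in KYSE70, a human cell line from an esophageal squamous cell carcinoma (ESCC) whose NFE2L2 gene is mutated, and in NRF2null-KYSE70, an isogenic derivative in which CRISPR-Cas9 disrupted NFE2L2, the gene of the transcription factor NRF2. Both lines were untreated, and each was measured in 3 libraries. NRF2null-KYSE70 is monoclonal, so each difference below was a difference between 1 clone and its parental line. Shorter NRF2 isoforms remained in the clone according to the study. No source states that the libraries of a line came from separate cultures, and the spread between them may be technical.

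ABC transporters use the hydrolysis of ATP to push a substrate across a membrane. The ABCC genes of this group encode multidrug resistance proteins, which carry organic anions such as glutathione, glucuronide and sulfate conjugates, and they work after the glutathione transferases that join a toxic compound to glutathione. NRF2 binds antioxidant response elements with a small MAF protein, and several of these exporters are known as its target genes in liver and in tumor cells.

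The start of each gene was therefore read for the core of that element. Promoter windows from RefSeq (GRCh38.p14) covered 250 bases before to 50 bases after a transcription start, and they were searched on both strands for TGACNNNGC, where N is any base. The table held 14 windows for 8 of the 10 exporters, and ABCC1 and ABCC3 were without an entry. The core was found in 4 of the 14 windows, from ABCB6, ABCC4, ABCC10 and ABCG2, compared with 13.3% of all 35116 windows. Counted by gene, 4 of 8 exporters had the core in any window, compared with 16.1% of 27305 genes and with 8 of 30 other ABC genes, and a gene with several windows such as ABCG2 had more chances of a match. No match was found in the windows of ABCB1, ABCC2, ABCC5 and ABCA1. Printed below are the windows of the exporter that rose (ABCC2), of the one that fell with the smallest adjusted p (ABCC5), and of a pair with a match before the start, of which one was called lower (ABCB6) and the other was not called (ABCC4). Each runs 5′ to 3′ on the strand of its gene, and capitals mark the core. In ABCC4 the core lay on the opposite strand, so that its reverse complement is in capitals.
ABCC2, chr10:99782390-99782689, plus strand: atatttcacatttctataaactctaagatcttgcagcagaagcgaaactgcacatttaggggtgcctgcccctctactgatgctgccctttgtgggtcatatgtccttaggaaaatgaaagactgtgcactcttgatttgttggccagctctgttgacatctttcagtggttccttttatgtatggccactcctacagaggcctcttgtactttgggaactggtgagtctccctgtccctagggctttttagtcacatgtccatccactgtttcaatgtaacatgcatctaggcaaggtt
ABCC5, chr3:184017835-184018134, minus strand: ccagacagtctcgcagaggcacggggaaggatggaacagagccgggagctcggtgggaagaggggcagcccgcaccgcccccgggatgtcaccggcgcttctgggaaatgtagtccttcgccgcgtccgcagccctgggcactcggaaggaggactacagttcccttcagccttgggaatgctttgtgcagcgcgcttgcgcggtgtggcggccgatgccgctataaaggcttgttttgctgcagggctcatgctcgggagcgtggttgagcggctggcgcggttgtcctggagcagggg
ABCB6, chr2:219218909-219219208, minus strand: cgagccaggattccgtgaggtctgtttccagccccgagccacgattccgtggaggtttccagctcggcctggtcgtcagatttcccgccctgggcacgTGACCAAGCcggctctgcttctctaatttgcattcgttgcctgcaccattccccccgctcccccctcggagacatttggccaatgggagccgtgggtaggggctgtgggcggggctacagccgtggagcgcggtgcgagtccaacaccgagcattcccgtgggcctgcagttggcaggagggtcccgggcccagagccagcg
ABCC4, chr13:95301402-95301701, minus strand: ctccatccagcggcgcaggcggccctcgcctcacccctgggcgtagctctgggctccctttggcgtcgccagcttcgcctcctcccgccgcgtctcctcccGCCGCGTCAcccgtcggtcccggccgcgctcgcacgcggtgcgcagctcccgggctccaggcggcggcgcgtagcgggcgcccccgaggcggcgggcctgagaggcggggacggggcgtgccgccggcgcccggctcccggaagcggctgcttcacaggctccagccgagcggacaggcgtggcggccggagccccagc
The first base of the match lay 152 bases before the start in ABCB6 and 149 bases before it in ABCC4. In ABCC10, whose windows are not printed, it lay 143 bases before the start. The ABCC2 window was poor in CpG, with 45.0% G and C and 1 CpG, whereas the ABCC5 window held 65.7% and 26 CpG and the ABCC4 window 79.7% and 47 CpG. Over all windows the medians were 58.7% and 14 CpG. A match describes these letters and does not show that NRF2 binds there. Only this pattern within these windows was searched, so the lack of a match does not show that a gene lacks the element.

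The libraries held between 52072801 and 63975313 reads counted in genes. The values below are normalized counts, that is, a gene's reads after division by the size factor of the library. NFE2L2 itself stood at 9839, 9906 and 10039.8 normalized counts in KYSE70 and at 5803, 6041 and 6434 in NRF2null-KYSE70, which was 61.4% of the parental mean. Its transcript was therefore still abundant in the clone, and a gene-level count does not read the edit itself. The squamous epithelium markers were present in both lines, with all 16 tested, 8 called higher and 7 called lower. That was 93.8% of them, beside 57.6% of all tested genes. Their sum lay between 472520 and 485863 normalized counts in KYSE70 and between 364909 and 384361 in the clone. Of 7 fibroblast markers 2 were tested and both were lower (COL1A1 and COL3A1), and the sum of all 7 ran from 1384 to 1618 in KYSE70 and from 485 to 638 in the clone. PDGFRB went the other way, with 0 reads in each KYSE70 library and 12, 15 and 14 reads in the clone, and COL1A2 and DCN were at 0 in every library. Of 8 immune and endothelial markers 2 were tested and both were higher (PTPRC and VWF), and the sum of all 8 ran from 143 to 149 in KYSE70 and from 315 to 494 in the clone. CD3E, PECAM1 and CDH5 averaged under 1 normalized count in each line, and the few reads of CD68 and LYZ were all in KYSE70. Of 7 hepatocyte markers 1 was tested and it was not called, and ALB and TTR were at 0. The part of these marker differences in the exporter values was not tested.

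Of the 9 exporters tested, 5 differed between the lines with limma at an adjusted p under 0.05, and 4 of these were lower in NRF2null-KYSE70 (ABCC1, ABCC5, ABCB6 and ABCC3) and 1 was higher (ABCC2). Among all 15994 genes tested, 57.6% were called, 28.3% lower and 29.3% higher, so the exporters were called about as often as other genes. When a log2 fold change of at least 1 in size was also required, ABCC2 alone was called, while 14.7% of all genes were, 7.43% lower and 7.23% higher. For 6 of the 9 exporters the 2 lines had no overlapping libraries, compared with 63.4% of all tested genes. The median log2 fold change of the 9 was -0.23, with 7 below 0, and the median over all tested genes was -0.0070. Their median absolute log2 fold change of 0.41 lay close to the 0.36 of all tested genes. Every fold change divides the clone by KYSE70 and is on the scale of log2(normalized count + 1), on which low genes appear to change less than they do, and adjusted p-values are limma's over all 15994 genes.

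**Figure D1:**
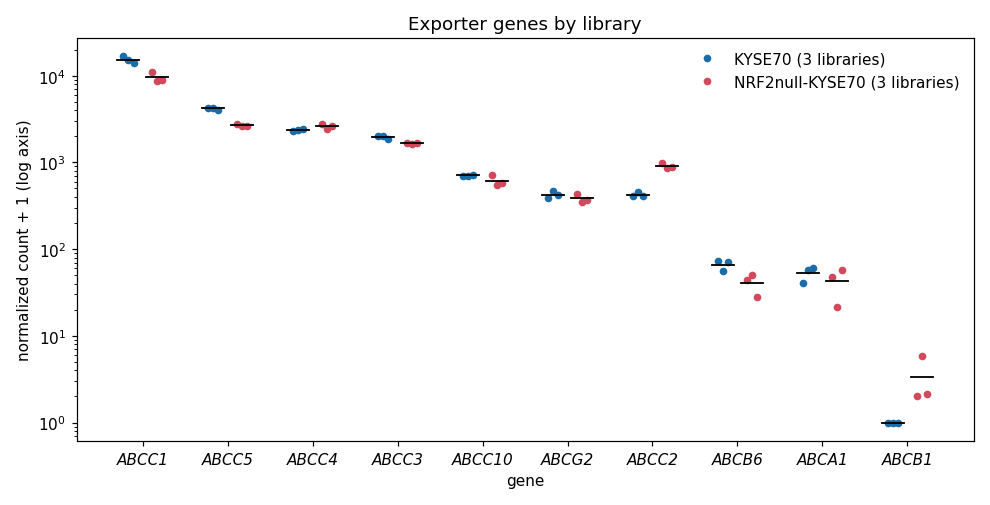
Normalized count + 1 (log axis) of the 10 exporters in each of the 3 KYSE70 and 3 NRF2null-KYSE70 libraries, with 1 point per library and a bar at the mean of each line. The ABCC2 points of the clone lie above those of KYSE70, those of ABCC1 and ABCC5 lie below, and the points of ABCC10, ABCG2 and ABCA1 overlap.

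ABCC1, known as MRP1, exports glutathione conjugates and many anticancer drugs across the plasma membrane. It lies on chromosome 16 at 15949138 to 16143257, plus strand (hg38), with 31 exons in its canonical transcript. It gave 16765, 14964 and 14157 normalized counts in KYSE70 and 11001, 8763 and 8827 in NRF2null-KYSE70. Every library of the clone was below every KYSE70 library, and library 1 was the highest within each line. The mean fell from 15295 ± 1335 to 9530.1 ± 1274 (SD, n = 3 libraries each), to 62.3% of the parental level, and the log2 fold change was -0.69 (SE 0.0845, 95% interval -0.87 to -0.50, limma adjusted p = 1.63e-05). In this bulk RNA, fewer cells with the transcript and less transcript per cell cannot be told apart. The short arm of chromosome 16 as a whole was lower in the clone, with a median log2 fold change of -0.49. Among the 20 nearest tested protein-coding genes, 10 on each side, 19 were below 0, 12 were called lower and 1 was called higher, and their median was -0.25. ABCC1 was the second lowest of these 21 genes. With the arm median subtracted, its log2 fold change was -0.20 and it was no longer called (limma adjusted p = 0.0612).

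ABCC2, known as MRP2, carries bilirubin glucuronides and glutathione conjugates, and it is best known at the bile-facing membrane of hepatocytes. It lies on chromosome 10 at 99782640 to 99852594, plus strand, with 32 canonical exons. The KYSE70 libraries gave 414, 454 and 404 normalized counts, and the NRF2null-KYSE70 libraries gave 986, 851 and 872. All 3 libraries of the clone were far above all 3 of KYSE70. The mean rose 2.13-fold, from 424 ± 26.8 to 903 ± 72.5 (SD, n = 3 each), with a log2 fold change of 1.09 (SE 0.0956, 95% interval 0.88 to 1.30, limma adjusted p = 7.80e-07). The median log2 fold change was 0.06 over its 20 neighbours, of which 7 were called lower and 7 higher, and 0.08 over its arm, and ABCC2 was the highest of the 21. Its promoter window, shown above, held no match to the searched core, and sequence outside that window was not searched. The direction of ABCC2 was opposite to that of the other called exporters.

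ABCC3, or MRP3, exports glucuronides and bile acids through the basolateral membrane. Its locus is on chromosome 17 at 50634777 to 50692253, plus strand, with 31 canonical exons. Its normalized counts were 2021, 2000.1 and 1840.1 in KYSE70 and 1653, 1643 and 1691 in NRF2null-KYSE70. The clone was lower in each library, and the gap to the lowest KYSE70 library was small. The mean fell from 1954 ± 99.1 to 1662 ± 24.9 (SD, n = 3 each), to 85.1%, and the log2 fold change was -0.23 (SE 0.0620, 95% interval -0.37 to -0.10, limma adjusted p = 0.00633). The median of its 20 neighbours was -0.10, and 7 of them were lower than ABCC3.

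**Figure D2:**
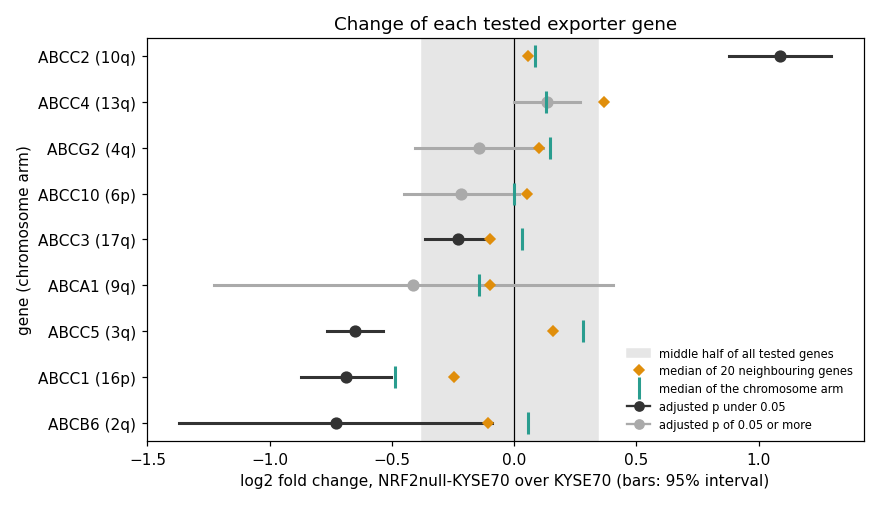
Log2 fold change (NRF2null-KYSE70 over KYSE70) of the 9 tested exporters with limma's 95% interval (black where the adjusted p was under 0.05, grey otherwise), with the median of the 20 neighbouring genes (diamond), the median of the chromosome arm (vertical tick) and the interquartile range of all tested genes (grey band, -0.38 to 0.34). The interval of ABCC2 lies above 0, those of ABCC1, ABCC5, ABCB6 and ABCC3 lie below 0, and the intervals of ABCC4, ABCC10, ABCG2 and ABCA1 cross 0.

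ABCC5, or MRP5, exports cyclic nucleotides and nucleotide analogs, among them metabolites of 5-fluorouracil. It lies on chromosome 3 at 183919934 to 184017939, minus strand, with 30 canonical exons. It was measured at 4275, 4283 and 4018 normalized counts in KYSE70 and at 2745, 2629 and 2633 in NRF2null-KYSE70. The libraries of each line were close together and the lines were widely apart. The mean fell from 4192 ± 151 to 2669 ± 65.8 (SD, n = 3 each), to 63.7%, with a log2 fold change of -0.65 (SE 0.0527, 95% interval -0.77 to -0.54, limma adjusted p = 3.60e-07). This was close in size to the change of ABCC1, but the surroundings moved the other way. The long arm of chromosome 3 had a median of 0.28, 10 of the 20 neighbours of ABCC5 were called higher and 1 lower, their median was 0.16, and ABCC5 was the second lowest of the 21. With the arm median subtracted the log2 fold change of ABCC5 was -0.93 and remained called.

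ABCC4, or MRP4, exports cyclic nucleotides, prostaglandins and nucleotide analogs, and it is located on chromosome 13 at 95019835 to 95301475, minus strand, with 31 canonical exons. Its normalized counts were 2317, 2393 and 2415 in KYSE70 and 2784, 2429.9 and 2614 in NRF2null-KYSE70. The clone was above KYSE70 in every library, but library 2 of the clone was only just above the highest KYSE70 library. The means were 2375 ± 51.5 and 2609 ± 177 (SD, n = 3 each), and the log2 fold change of 0.13 did not pass the threshold (SE 0.0619, 95% interval -0.00062 to 0.27, limma adjusted p = 0.0822). Without that library of the clone the value was 0.18 and passed (limma adjusted p = 0.0336). The neighbours of ABCC4 had a median of 0.37, with 13 of 20 called higher, and with the median of its arm subtracted ABCC4 was at 0.0035 (limma adjusted p = 0.969). Its promoter window held the core, and a relation between the core and the level of ABCC4 was not tested.

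ABCC10, or MRP7, exports taxanes and glucuronides. The gene is on chromosome 6 at 43427366 to 43450427, plus strand, with 22 canonical exons, of which 76 bases are shared with exons of DLK2 on the opposite strand. KYSE70 gave 704, 696 and 718 normalized counts and NRF2null-KYSE70 gave 722, 543 and 572. Libraries 2 and 3 of the clone were below KYSE70, whereas library 1 was the highest of all 6. The means were 706 ± 11.3 and 612 ± 96.1 (SD, n = 3 each), with a log2 fold change of -0.22 that was not called (SE 0.109, 95% interval -0.45 to 0.02, limma adjusted p = 0.107). Leaving out library 1 of the clone gave -0.34 and a call (limma adjusted p = 0.00549). DLK2 went from 819.5 to 487 normalized counts, and as the counting is not stated to use strand, a contribution of its reads to ABCC10 over those bases was not tested.

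ABCB1 encodes P-glycoprotein, the classical multidrug efflux pump for large hydrophobic drugs, and lies on chromosome 7 at 87503017 to 87713323, minus strand. It had 0 reads in each KYSE70 library and 1, 5 and 1 reads in the clone, in libraries with 52072801 or more reads counted in genes. These counts were at or near the floor of 3 reads per library, below the mean of 10 required for the test, so ABCB1 was not tested and no fold change is given. It was the least expressed of the 10 exporters in both lines.

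ABCG2, the breast cancer resistance protein, is a transporter that works as a dimer and pumps out topoisomerase inhibitors, urate and porphyrins, and it lies on chromosome 4 at 88090150 to 88231628, minus strand. Its normalized counts were 389, 463 and 423 in KYSE70 and 436, 349 and 369 in NRF2null-KYSE70. The lines overlapped, since library 1 of the clone was above 2 of the KYSE70 libraries. The means were 425 ± 37.0 and 385 ± 45.7 (SD, n = 3 each), and the log2 fold change of -0.15 was not called (SE 0.121, 95% interval -0.41 to 0.12, limma adjusted p = 0.325). One of its 5 promoter windows held the core, with its first base 2 bases after the start.

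ABCB6 also works as a dimer and is linked to porphyrin transport in mitochondrial and other membranes, and heme metabolism is a known branch of the NRF2 response. It lies on chromosome 2 at 219209772 to 219218994, minus strand, with 19 canonical exons. It was measured at 71.1, 54.4 and 69.6 normalized counts in KYSE70 and at 42.6, 49.0 and 27.4 in NRF2null-KYSE70, from 24 to 80 reads per library. The lines did not overlap, but library 2 of each line came close to the other. The mean fell from 65.1 ± 9.24 to 39.7 ± 11.1 (SD, n = 3 each), to 61.0%, with a log2 fold change of -0.73 (SE 0.295, 95% interval -1.37 to -0.09, limma adjusted p = 0.04998). That value lay at the threshold, and the call was lost in 13 of 18 alternatives while the direction was kept in all 18. Of its exonic length, 54.6% also belongs to another gene model on the same strand (ENSG00000284820), which had means of 1.86 and 0.707 normalized counts, and how reads over the shared exons were assigned is not given, so the level of ABCB6 is uncertain.

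ABCA1 loads cholesterol and phospholipids onto apolipoprotein A-I and is induced by the liver X receptors. It lies on chromosome 9 at 104781006 to 104928155, minus strand, with 50 canonical exons. The values were 40.0, 56.2 and 59.1 normalized counts in KYSE70 and 46.7, 20.6 and 57.1 in NRF2null-KYSE70. Library 2 of the clone was low, and both other libraries lay within the KYSE70 range. The means were 51.8 ± 10.3 and 41.4 ± 18.8 (SD, n = 3 each), and the log2 fold change of -0.41 was not called (SE 0.376, 95% interval -1.23 to 0.40, limma adjusted p = 0.371). Without the low library the sign changed, to 0.016 (limma adjusted p = 0.970).

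**Figure D3:**
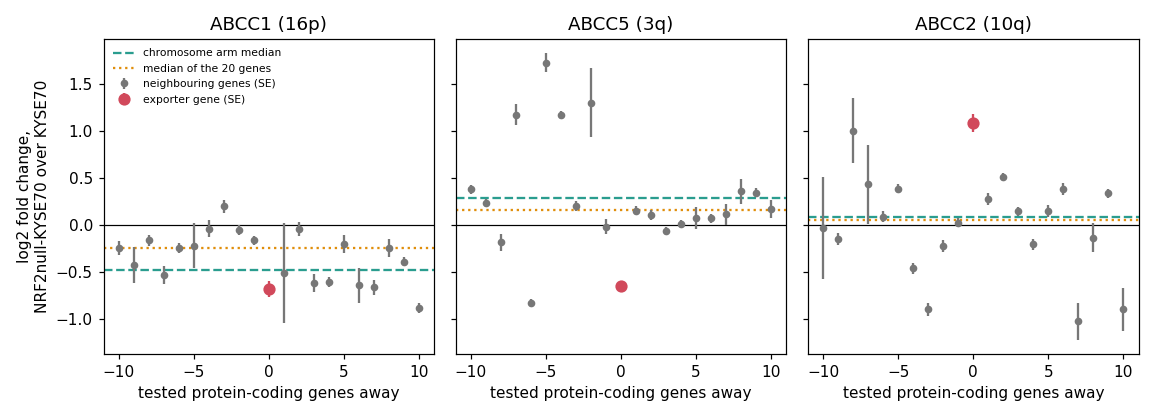
Log2 fold change (NRF2null-KYSE70 over KYSE70) of ABCC1, ABCC5 and ABCC2 (large red points at 0) and of the 10 nearest tested protein-coding genes on each side (grey points, by their order along the chromosome), with SE bars, the median of the 20 genes (dotted) and that of the chromosome arm (dashed). ABCC2 lies above all 20 neighbours, ABCC5 lies below all but 1, and ABCC1 lies low among neighbours of which 19 of 20 were below 0.

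To compare the exporters with one another, normalized counts were divided by the length of the merged exons in kilobases, taken from GENCODE v44, which may not be the annotation used for counting. In KYSE70, ABCC1 had the highest level, 1751 ± 153 normalized counts per kb (SD over 3 libraries, as for all levels per kb), which was 4.75 times the next, ABCC5, at 369 ± 13.3. ABCC4 followed at 275 ± 5.97, ABCC3 at 203 ± 10.3, ABCC10 at 87.3 ± 1.40, ABCG2 at 75.8 ± 6.61 and ABCC2 at 54.1 ± 3.43. ABCB6 at 12.5 ± 1.78 and ABCA1 at 4.56 ± 0.906 were low, and ABCB1 was at 0. No neighbours in this order had overlapping ranges over the 3 libraries. In NRF2null-KYSE70 the level of ABCC1 was still the highest at 1091 ± 146 normalized counts per kb. ABCC4 at 302 ± 20.5 now stood above ABCC5 at 235 ± 5.79, and ABCC2 at 115 ± 9.25 had moved from the seventh to the fifth place, above ABCC10 at 75.7 ± 11.9 and ABCG2 at 68.7 ± 8.15. ABCC10 and ABCG2 had overlapping ranges in the clone and are not ordered.

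The summed level of the 10 exporters was 3000.4, 2817 and 2679.6 normalized counts per kb in KYSE70 and 2301, 1937 and 1979 in NRF2null-KYSE70. The clone was lower in every library. Most of the gap was ABCC1, which made up 86.8% of the difference between the means of 2832 ± 161 and 2072 ± 199 (SD, n = 3 each). ABCC5 made up 17.6%, and ABCC2, which was higher in the clone, made up -8.04%. Without ABCC1 the sums were 1082 ± 22.5 and 981 ± 54.9, with ranges of 1059 to 1104 and 934 to 1042 that did not overlap. The share of ABCC1 in the summed level went from 61.7% ± 1.92 to 52.5% ± 1.95, that of ABCC4 from 9.75% ± 0.752 to 14.6% ± 0.646, and that of ABCC2 from 1.91% ± 0.150 to 5.57% ± 0.0855. The sum describes transcripts and weights every exporter equally per length, whatever it carries.

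**Figure D4:**
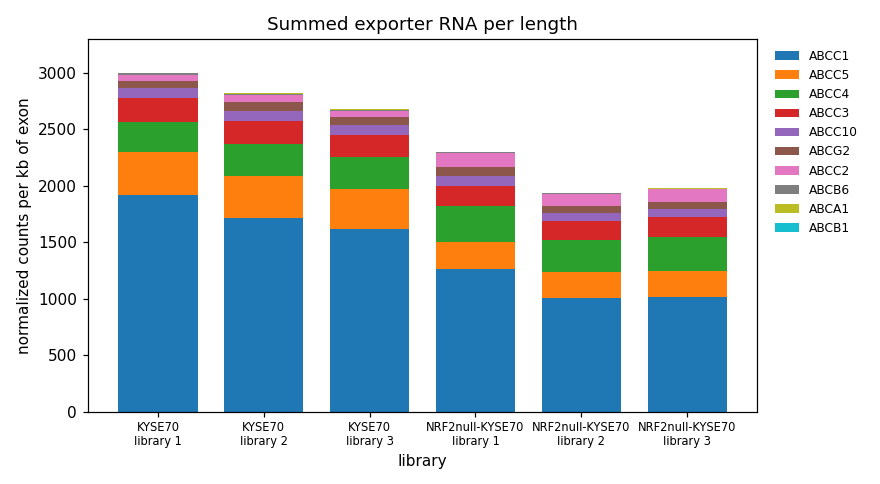
Normalized counts per kb of merged exon of the 10 exporters, stacked within each of the 6 libraries. ABCC1 fills most of each bar, the clone's bars reach 1937 to 2301 against 2680 to 3000 in KYSE70, and the ABCC2 segment is taller in the clone.

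The rest of the ABC family was read for comparison. Of the 38 other ABC genes, 25 were tested, 9 were called higher and 6 lower (60.0%, beside 57.6% of all tested genes), and their median log2 fold change was 0.04. No difference between this list and the exporters was tested. ABCG1, which exports cholesterol together with ABCA1, rose from 3985 ± 236 to 6457 ± 211 normalized counts (SD, n = 3 each; log2 fold change 0.70, SE 0.0550, limma adjusted p = 2.85e-07). ABCA13, a very long ABCA protein, rose from 666 ± 69.7 to 1577 ± 187 (log2 fold change 1.24, SE 0.102, limma adjusted p = 3.97e-07), and like ABCC2 it was higher in every library of the clone. Of the 38 other ABC genes, 5 were called higher and 1 lower with a log2 fold change of at least 1 in size. ABCA13 alone among these had a mean of at least 100 normalized counts over the 6 libraries. Of 48 ABC genes in all, 33 had a mean of at least 10 normalized counts in each line, and 17 had at least 1000. The 3 tested genes whose 6 log2 values, centred on the gene mean, lay nearest to those of ABCC2 were CDC14B, PDIA5 and NRG1, at Euclidean distances of 0.0659, 0.115 and 0.120. Their choice by that distance fixed a similar change in advance, and their means over 3 libraries rose 2.11-fold, 2.10-fold and 2.12-fold, beside 2.13-fold for ABCC2.

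**Figure D5:**
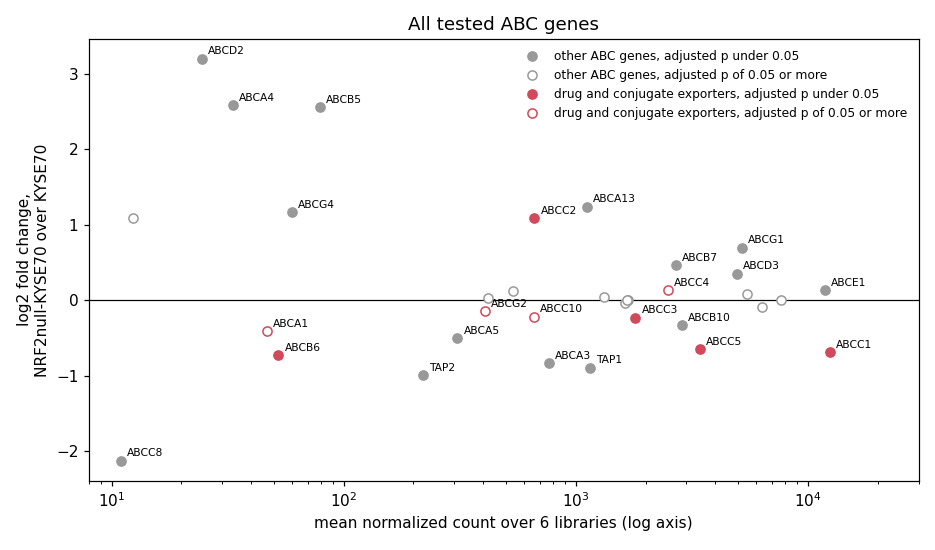
Log2 fold change (NRF2null-KYSE70 over KYSE70) of every tested ABC gene against its mean normalized count over the 6 libraries (log axis), with the exporters in red and the other ABC genes in grey, filled where the adjusted p was under 0.05. ABCC1 is the exporter farthest to the right, and ABCC2 the highest of the exporters.

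The steps around the exporters were described from gene lists, whose shares of called genes stand beside the 57.6% of all tested genes. On the list of glutathione conjugation and the mercapturate steps, 17 genes were tested, 8 were called lower and 1 higher (52.9% called), with a median log2 fold change of -0.45. All 8 called lower were genes of the glutathione transferase families (GSTA1, GSTA2, GSTA4, GSTM2, GSTM3, GSTO2, GSTP1 and MGST1). Enzymes of these families make conjugates that ABCC1 and ABCC2 export, but the part of each gene in this was not tested. GSTA1, GSTA2 and GSTO2 had means of only 30.4, 16.4 and 30.6 normalized counts over the 6 libraries, so their values are imprecise. GSTK1 was the gene called higher, and of the mercapturate enzymes GGT1 and GGT7 were tested and neither was called. GSTA4, which conjugates lipid aldehydes, fell from 1848 ± 143 to 556 ± 56.9 normalized counts (log2 fold change -1.73, limma adjusted p = 7.83e-09). GSTM3 fell from 7797 ± 514 to 2649.7 ± 408 and GSTM2 from 736 ± 79.6 to 235 ± 8.77 (log2 fold changes -1.57 and -1.64, limma adjusted p = 2.43e-08 and 7.89e-08), and as near-identical copies of the GSTM family may share reads, these values are uncertain.

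Other drug and metal transporters were called in 10 of 17 tested genes (58.8%), 7 lower and 3 higher, with a median log2 fold change of -0.17. SLC47A1 (MATE1), a proton-coupled exporter of organic cations, fell from 4245 ± 156 to 1939 ± 110 normalized counts (log2 fold change -1.13, limma adjusted p = 6.81e-09). SLCO2A1, a prostaglandin carrier, rose from 41.4 ± 8.56 to 201 ± 24.5 (log2 fold change 2.27, limma adjusted p = 2.14e-06). The copper importer SLC31A1 (CTR1), through which cisplatin can enter, fell to 84.7% of the KYSE70 mean (log2 fold change -0.24, limma adjusted p = 0.00245). ATP7B, a copper exporter, had means of 581 and 571 and was not called (log2 fold change -0.03, limma adjusted p = 0.855). On the same list, ATP7A was called lower, from 1379 ± 154 to 903 ± 33.1 (log2 fold change -0.61, limma adjusted p = 5.87e-05). SLC31A2 was called higher, from 1291 ± 86.5 to 2019.7 ± 161 (log2 fold change 0.64, limma adjusted p = 1.21e-05). MVP, the major vault protein, fell to 55.3% (log2 fold change -0.85, limma adjusted p = 3.33e-06) and lies on the same low arm of chromosome 16 as ABCC1.

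On the list of regulators of exporter transcription, 14 of 20 tested genes were called (70%), 9 higher and 5 lower. The median log2 fold change was 0.10. KEAP1, listed as the negative regulator of NRF2, was among those called lower (log2 fold change -0.78, limma adjusted p = 1.20e-07). MAFF, a small MAF partner of NRF2, rose from 314 ± 7.66 to 2369 ± 121 normalized counts (log2 fold change 2.91, limma adjusted p = 1.65e-11), the only gene on that list past a log2 fold change of 1 with a mean of at least 100. The other small MAF genes were higher than MAFF in KYSE70 and changed less. MAFG fell from 3858 ± 157 to 3039 ± 38.0 (log2 fold change -0.34, limma adjusted p = 9.97e-05). MAFK rose from 2335 ± 261 to 3008 ± 197 (log2 fold change 0.37, limma adjusted p = 0.00145). Genes of cholesterol export and the liver X receptor response, the setting of ABCA1, were called higher in 8 and lower in 3 of 17 tested genes (64.7%), with a median log2 fold change of 0.32, while ABCA1 itself was not called. Among proteins that hold exporters in the membrane, 8 were tested, 4 called higher and 2 lower (75%). SLC9A3R1 (NHERF1), a scaffold that binds ABCC2 and other ABCC proteins, fell from 7223 ± 204 to 2765 ± 177 (log2 fold change -1.39, limma adjusted p = 7.05e-10), opposite to ABCC2. CAV1, the caveolin coat protein, rose from 23902 ± 201 to 72693 ± 1443 (log2 fold change 1.60, limma adjusted p = 1.71e-11).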

How the data were processed

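The authors trimmed reads with cutadapt 1.12, aligned them with STAR 2.6.90c to hg38, counted them per gene with featureCounts 1.5.1 and normalized with DESeq2; the strand setting and the treatment of multiply aligned reads are not given in the sources used here. The deposited file held these normalized counts (a signal, 1 column per library). Its column names gave the line but no replicate, and libraries are therefore called 1 to 3 in column order. The values were whole multiples of 1 read (0.889 to 1.14) for 100% of values in each library, within a tolerance of 0.01, which gave the read totals.

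Normalized counts were tested here with limma 3.58.1 (lmFit, eBayes with a trend, two-sided) on log2(normalized count + 1) for the 15994 genes with a mean of at least 10, with Benjamini-Hochberg adjustment over all of them and R 4.3.3. The fit was tested on simulated data. Positions, exon lengths and neighbours came from GENCODE v44 (hg38). The study names a RefSeq annotation while the table lists Ensembl identifiers, so the gene models used for counting are uncertain, and with them levels per kb and exon overlaps. The alternatives changed the pseudocount (0.1 or 5), the filter (none, or a mean of 50), the scaling (quantile, TMM or total reads) and limma's variance model (no trend, or robust), or used DESeq2 1.42.0 and edgeR 4.0.16 on the recovered reads, subtraction of the chromosome arm median, a required log2 fold change of 1, and leaving out each library.

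Besides the exporters, the genes named were those of each list called with a log2 fold change of 1 or more in size and a mean of at least 100, at most 6 per list, plus NFE2L2, ABCG1, SLC31A1, ATP7B and MVP, and the 3 genes nearest to the called exporter with the largest change; 1 gene that met the rule is not reported here. Marker genes of cell types, DLK2, the other glutathione transferases, GGT1 and GGT7 were named after their values were seen. The same holds for ATP7A, SLC31A2, KEAP1, MAFG and MAFK. The exporters and the lists were chosen with earlier results of these data known.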

Additional observations from a re-analysis of the deposited data

How the results depend on the processing

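The calls of ABCC2, ABCC3 and ABCC5 were kept in all 18 alternatives run on each, with log2 fold changes of 1.00 to 1.14, -0.31 to -0.21 and -0.93 to -0.64, and ABCG2 was called in none. ABCB6 lost its call with a pseudocount of 0.1 (-0.74), with no filter, a filter at 50, no trend or robust eBayes (-0.73 each), with quantile normalization (-0.62), with DESeq2 or edgeR (-0.71 each), and without 5 of the 6 libraries (-0.90 to -0.49 over all 6). ABCC1 lost its call when the arm median was subtracted (-0.20), and the values with a library left out were -0.79 to -0.62. ABCC10 was called with total scaling (-0.29) and without library 1 of the clone, with values from -0.34 to -0.14 over the libraries left out. ABCC4 was called without library 2 of the clone, with values from 0.086 to 0.18. ABCA1 changed sign without that library, to 0.016, and the other values reached -0.70. Of the exporters, 5 were called in the main test, 1 when a log2 fold change of 1 was required, 0 with limma's treat against that size, and 4 to 6 with a library left out. Over all genes the counts were 9206, 2344, 970 and 8160 to 9339. At an unadjusted p under 0.05, treat gave 0 exporters and 1464 genes. Total scaling moved the median of all genes by -0.075. ABCB1 was below the filter and has no value to vary. The causes of these changes were not tested.

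No paired analysis was possible because the columns carried no replicate number. Few reads were counted for ABCB1, with at most 5 in a library, and for ABCB6 and ABCA1, with 80 or fewer, so their values are imprecise. With 3 libraries of 1 clone, the spread between clones was not measured.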
